A study of Mus musculus with 27 samples.

Results

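The constitutive proteasome subunits were the 35 targets whose symbols began with Psma, Psmb, Psmc or Psmd followed by a number, without the immunoproteasome genes Psmb8, Psmb9 and Psmb10, out of 19615 targets in the table. They were read in MC38 liver metastases, that is, tumours that a mouse colon carcinoma line formed in the livers of 2-month-old C57BL/6 mice after injection into the portal vein, with sacrifice 11 days later. The 13 knockdown-labelled regions came from cells that carried a lentiviral Cmtm6 shRNA, and the 14 control regions from cells that carried a nontargeting shRNA. CMTM6 is a membrane protein known to keep PD-L1 from being degraded. GeoMx reads RNA in place: probes bind transcripts on the slide, light frees their barcodes within an outlined area, and the barcodes are then sequenced. Each region here was the segment labelled Remainder of an area stained for pan-cytokeratin, to mark tumour cells, and desmin, to mark fibroblasts. Host cells in that segment were read together with the tumour cells. The study used 3 mice per group and no label says which mouse a region came from, so some regions shared an animal. All p-values over regions are therefore too small and all intervals too narrow.

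The proteasome is the protease that degrades proteins tagged with ubiquitin. Its 20S core is a stack of rings of alpha and beta subunits, and the beta rings carry the cutting sites inside the chamber. The 19S cap has a base, whose ATPases unfold the substrate and thread it into the core, and a lid that removes ubiquitin. Under interferon the catalytic subunits Psmb6, Psmb7 and Psmb5 are replaced in new cores by Psmb9, Psmb10 and Psmb8, and the resulting immunoproteasome favours peptides that fit MHC class I. Cells short of proteasome activity are known to raise the subunit genes together through the transcription factor NRF1 (Nfe2l1).

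The authors had scaled each label group separately, to an upper quartile of 539 ± 0.959 in knockdown-labelled regions (SD, n = 13) and 788 ± 1.45 in control regions (SD, n = 14). Every region was therefore set to the same median over all targets, and readings below are on this common-median scale. A change is thus a change relative to the other transcripts, and readings of different probes do not rank the subunits by abundance. Nearly all readings of a region were whole multiples of one step, and in such steps region totals were 4223031 to 19827298 steps in knockdown-labelled regions and 9977866 to 26328209 steps in control regions. The lowest reading of any subunit other than Psmb11 was 237 steps. A target counted as above background when its mean lay over percentile 95 of 1125 chemosensory receptor genes (odorant, vomeronasal, taste, trace amine), which 10799 targets did. Of 9 epithelial markers, among them keratins and Epcam, 1 was above that limit. The targeted transcript Cmtm6 did not mark the label, with a log2 fold change of -0.06, with an SE of 0.07 (limma adjusted p = 0.631). Control regions 6 and 7 had the highest mean log2 readings of a list of 13 hypoxia genes, 10.81 and 10.50. The list also differed by label, with all 13 genes below 0 and a median log2 fold change of -0.54. Of these, 6 were lower at limma's adjusted p under 0.05, beside 2.58% of all targets. Control regions 3, 8, 10 and 11 also lay above the highest knockdown-labelled region, at 9.93, 9.52, 9.58 and 9.78 against 9.19. Knockdown-labelled region 13 had the lowest total.

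Of the 35 subunits, 34 were above background. The exception was Psmb11, a beta subunit known from thymic cortical epithelium, where it shapes T cell selection. It read 151 at the lowest, 161 at the median and 196 at the highest in knockdown-labelled regions, against 137, 166 and 210 in control regions. The groups overlapped throughout, and the probe did not rise above the receptor genes in these tumours.

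No constitutive subunit passed the test between the labels on the common-median scale, while other scalings called some, as given further on. In knockdown-labelled regions 0 of 35 subunits were higher and 0 were lower, taking limma's adjusted p under 0.05 over all targets. Over all 19615 targets 763 passed, or 3.89%, of which 256 were higher (1.31%) and 507 lower (2.58%). The thresholds the study had used were an unadjusted p under 0.05 and a change over 1.5-fold. Applied to limma's results on the common-median scale, 0 subunits passed them, against 0.326% of all targets. The study applied them to its own values, where it reported far more transcripts, nearly all of them lower. A count of 0 in 35 lies close to these shares and is no result about the subunits by itself. The unadjusted p was under 0.05 for 0 of them, and the exact rank-sum test called 0. The log2 fold changes ran from -0.16 to 0.11 with a median SE of 0.08, and all 35 intervals held 0. Their outermost bounds, too narrow where regions shared an animal, were -0.33 and 0.27, that is, 0.797-fold and 1.202-fold. The fold change was above 0 for 17 subunits and below 0 for 18, with a median of -0.00, while the median of all targets was -0.04 and 66.0% of them were below 0. In every one of the 35 the readings of the groups overlapped. The share of all targets that overlapped was not counted, so this is no result about the subunits by itself. In such bulk segments fewer cells of a type and less RNA per cell cannot be told apart.

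**Figure D1:**
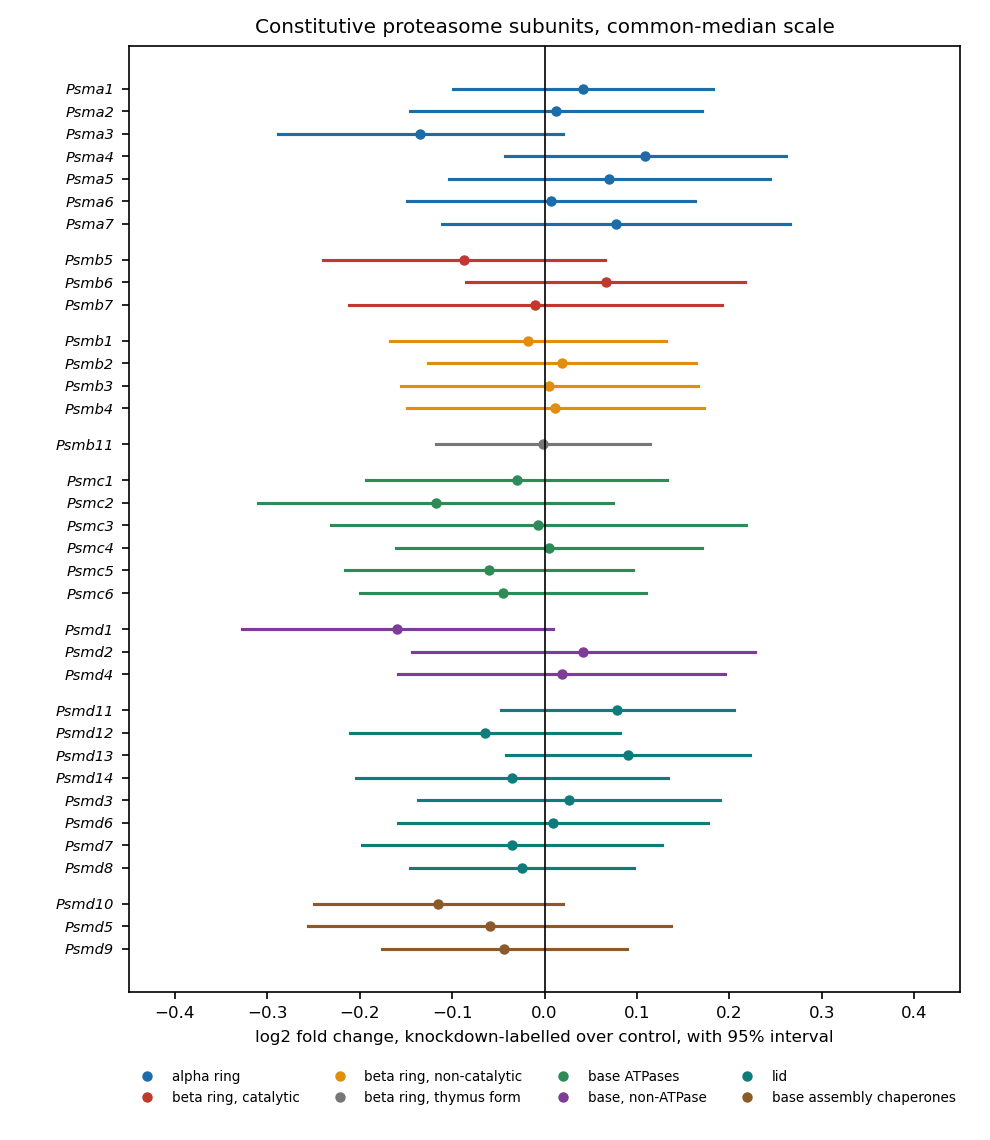
Log2 fold change of each of the 35 constitutive subunits, knockdown-labelled over control regions, on the common-median scale; points are limma estimates, lines are 95% intervals, and colours mark the place in the complex. Every line crosses 0, and the points lie between -0.16 and 0.11.

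The alpha ring forms the gate through which substrates enter the core. Its 7 subunits had a median log2 fold change of 0.04, with 6 above 0 and 0 past the test. Psma3 was the one with a fold change below 0 and the smallest p of the ring. Its readings in knockdown-labelled regions were 1453 at the lowest, 1925 at the median and 2289 at the highest, against 1512, 2076 and 2427 in control regions. Most of the range was shared, and 9 of 13 knockdown-labelled regions were under the control mean. The log2 fold change was -0.13, with an SE of 0.08 (limma adjusted p = 0.316). Psma7, with the highest mean reading of all subunits, had 5632, 8113 and 10048 in knockdown-labelled regions and 5539, 7446 and 9732 in control regions. Only 1 knockdown-labelled region exceeded the highest control region, and the log2 fold change was 0.08, with an SE of 0.09 (limma adjusted p = 0.680). Psma4, singled out after its values were seen, had the largest positive estimate, 0.11 (SE 0.08; limma adjusted p = 0.422).

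The beta ring holds the active sites. The catalytic subunits Psmb6, Psmb7 and Psmb5 carry the caspase-like, trypsin-like and chymotrypsin-like activities. Psmb5, also the target of the drug bortezomib, read 1573, 2099 and 2549 (lowest, median, highest) in knockdown-labelled regions and 1826, 2205 and 2550 in control regions. In 5 of the 13 knockdown-labelled regions it lay under the lowest control region, while the highest readings of the groups were nearly equal. The log2 fold change was -0.09, with an SE of 0.08 (limma adjusted p = 0.543). Psmb6 read 2614, 3424 and 4280 in knockdown-labelled regions and 2717, 3210 and 4135 in control regions, with a log2 fold change of 0.07, with an SE of 0.07 (limma adjusted p = 0.653). Psmb7 read 2268, 3629 and 4518 against 2669, 3433 and 4174 in control regions, and its log2 fold change was -0.01, with an SE of 0.10 (limma adjusted p = 0.972). Psmb7 spread more widely under the knockdown label, with 3 of 13 regions below and 2 above the whole control range. Psmb1, Psmb2, Psmb3 and Psmb4 build the ring without cutting. Their log2 fold changes lay between -0.02 and 0.02, with the smallest p for Psmb2, which read 2611, 3434 and 3985 in knockdown-labelled regions and 2513, 3308 and 3935 in control regions (log2 fold change 0.02, SE 0.07; limma adjusted p = 0.918).

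The base of the cap unfolds substrates with the 6 ATPases Psmc1 to Psmc6. Of these, 5 had a fold change below 0 and 0 passed, with a median of -0.04. Psmc2 had the smallest p and read 1107, 1708 and 2137 in knockdown-labelled regions, against 1229, 1814 and 2203 in control regions. The ranges were offset by less than the spread within either group, and the log2 fold change was -0.12, with an SE of 0.09 (limma adjusted p = 0.508). Psmd1, the larger scaffold of the base, came nearest to the threshold of all 35 subunits. It read 1184, 1773 and 2049 in knockdown-labelled regions and 1403, 1856 and 2162 in control regions. Of the knockdown-labelled regions 7 were under the control mean and 6 above it, and 3 fell under the lowest control region. The log2 fold change was -0.16, with an SE of 0.08 (unadjusted p = 0.0632, limma adjusted p = 0.272). The other scaffold, Psmd2, and the ubiquitin receptor Psmd4 had log2 fold changes of 0.04 and 0.02.

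In the lid, where Psmd14 is the enzyme that cuts ubiquitin chains off, 4 of 8 subunits were above 0 and 4 below, and 0 passed. Psmd13 read 1266, 1515 and 1764 in knockdown-labelled regions and 1157, 1396 and 1742 in control regions. The groups overlapped over most of their range, with 9 of 13 knockdown-labelled regions above the control mean, and the log2 fold change was 0.09, with an SE of 0.07 (limma adjusted p = 0.450). Psmd14 itself had -0.04 (SE 0.08; limma adjusted p = 0.857). Psmd5, Psmd9 and Psmd10 are not parts of the finished cap but chaperones that help assemble its base. All 3 had a fold change below 0 and 0 passed, with a median of -0.06. Psmd10, known as gankyrin and studied in liver cancer, read 669, 861 and 1023 in knockdown-labelled regions and 755, 900 and 1105 in control regions. In 9 of 13 knockdown-labelled regions it lay below the control mean, and the log2 fold change was -0.11, with an SE of 0.07 (limma adjusted p = 0.328).

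**Figure D2:**
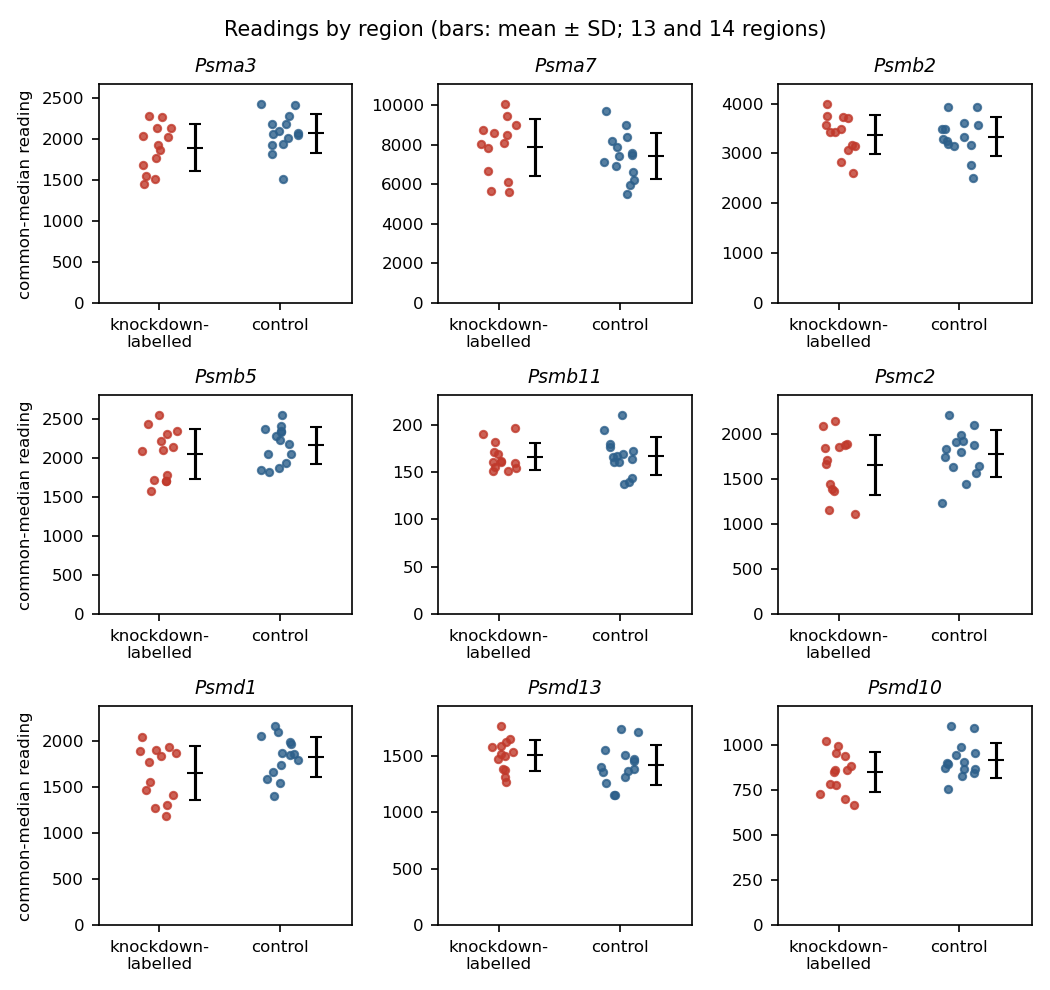
Common-median readings of 9 of the constitutive subunits; each point is a region, with 13 knockdown-labelled regions left of 14 control regions, and bars give the mean ± SD. The ranges overlap in all 9 panels, and Psmb11, between 137 and 210, reads at the level of the receptor genes.

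The direction of single subunits depended on the scaling, because the estimates were small. On the deposited values, which carry the separate normalization, 35 of 35 subunits were lower in knockdown-labelled regions, as were 19222 of all targets, whose median was -0.54. On the same upper quartile and with TMM factors 0 subunits passed. With the same total Psmd11 and Psmd13 passed as higher, at log2 fold changes of 0.14 and 0.15, and with quantile normalization Psma4, Psmb6, Psmd11 and Psmd13 did. With a list of 15 housekeeping genes 17 passed as higher, on a scale where the median of all targets was 0.11. Over all 19615 targets the same total called 257 higher, quantile normalization 477 and the housekeeping list 1850. Scaled to the mean of the 34 subunits themselves, 0 passed, and the estimates ran from -0.15 for Psmd1 to 0.12 for Psma4. A scaling by 1 factor per region shifts the fold changes of all targets nearly alike. For those scalings the plot shows mainly where 0 falls. Such a factor also changes the spread between regions, which the plot does not show. The SE of Psmb6 was 0.075 on the common median and 0.045 on the same upper quartile. Quantile normalization does not use 1 factor per region. There the subunit median was 0.043 and that of all targets -0.004.

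**Figure D3:**
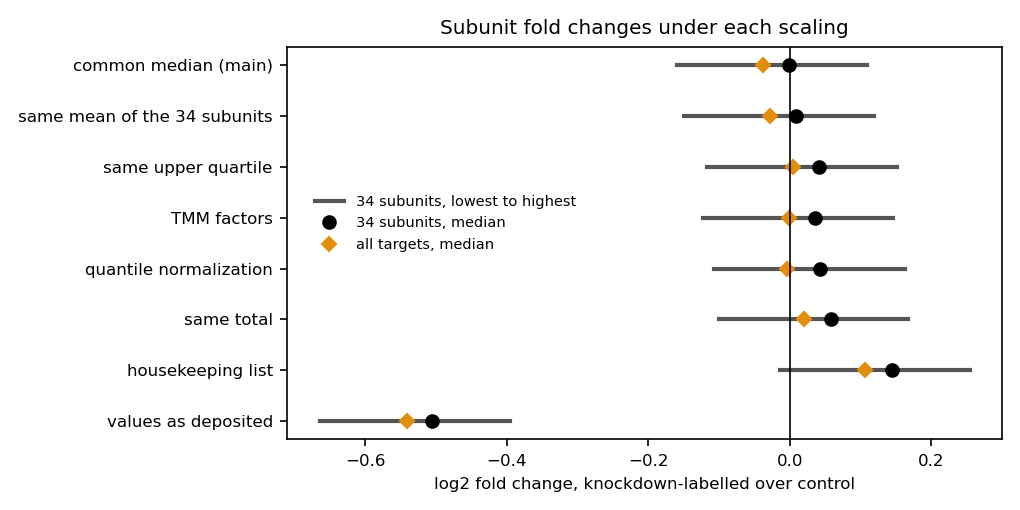
Log2 fold changes of the 34 constitutive subunits above background under each scaling, knockdown-labelled over control regions; lines run from the lowest to the highest subunit, circles are the subunit median and diamonds the median of all targets. The subunit median ran from -0.51 for the deposited values to 0.14 with the housekeeping list.

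Across regions the 34 subunits above background varied together. The mean of their log2 readings ran from 10.91 in region 1 to 11.57 in region 6 of the knockdown-labelled regions, with a median of 11.34. In control regions it ran from 10.92 in region 13 to 11.54 in region 2, with a median of 11.26. The extremes were shared by most subunits. Control region 13 held the lowest control reading of 31 of the 34, and knockdown-labelled regions 1 and 10 held the lowest of their group for 19 and 13. The median Pearson correlation over the 561 pairs of subunits was 0.84 across the 13 knockdown-labelled regions and 0.83 across the 14 control regions. For pairs of all targets above background, which were not matched to the subunits for reading level, it was 0.24 in both groups. Other complexes also varied together on this scale. The 8 subunits of the cytosolic chaperonin CCT had medians of 0.87 and 0.94. The 9 of the COP9 signalosome, a relative of the lid, had 0.77 and 0.64. These are descriptions, because regions shared animals and a scaling. The mean log2 of the 14 core subunits minus that of the 17 of the base and lid was 0.56 ± 0.04 in knockdown-labelled regions (SD, n = 13) and 0.53 ± 0.03 in control regions (SD, n = 14). It ran from 0.52 to 0.65 in knockdown-labelled regions and from 0.49 to 0.58 in control regions, so the ranges overlapped, and the difference was not tested. Its Pearson correlation with the mean of the immunoproteasome genes was 0.86 in knockdown-labelled and 0.49 in control regions, again as a description.

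On the common-median scale the shared level ran against the background of a region. The median of the receptor genes over the upper quartile was 0.161 to 0.243 in knockdown-labelled regions and 0.165 to 0.239 in control regions. Its Pearson correlation with the subunit mean was -0.90 in knockdown-labelled regions (Spearman -0.96, n = 13) and -0.92 in control regions (Spearman -0.92, n = 14). The mean of 18 proliferation genes followed the subunits, with Pearson correlations of 0.89 and 0.92 in the same groups. With the background ratio regressed out, the median correlation between subunits was 0.52 in knockdown-labelled and 0.49 in control regions. For all targets above background, again not matched for reading level, it was 0.02 and 0.03. In the same groups the median correlation was then 0.49 and 0.88 for CCT, and 0.23 and 0.10 for the COP9 signalosome. The relation to the background ratio depends in part on the scale, since the deposited median of a region rose with its background. Control regions 13 and 2 had deposited upper quartiles of 790 and 787 but medians of 331 and 255. Setting the medians equal thus lowers the subunits in region 13 relative to region 2. What part the background ratio or this scaling has in the shared level was not tested. The 3 immunoproteasome genes did not follow it. Their mean log2 reading had a Pearson correlation of 0.06 with the subunit mean in knockdown-labelled regions (Spearman -0.26) and 0.02 in control regions (Spearman -0.05), although among themselves the median was 0.87 and 0.89.

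**Figure D4:**
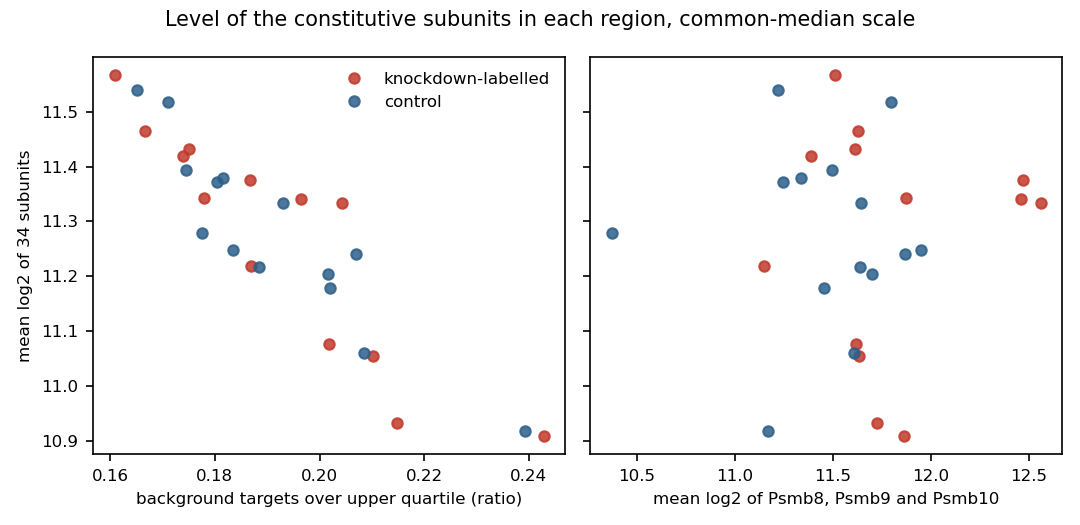
Mean log2 reading of the 34 constitutive subunits in each region (vertical axis, common-median scale) against the ratio of receptor background genes to the upper quartile (left) and against the mean log2 reading of Psmb8, Psmb9 and Psmb10 (right). The subunit mean falls as the background ratio rises in both groups (Pearson -0.90 in knockdown-labelled and -0.92 in control regions) and has no such slope against the immunoproteasome genes (0.06 and 0.02).

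Single subunits left the shared level in few regions. After each subunit was compared with the mean of the other 33 and its own median was removed, 888 of 918 values, or 96.7%, lay within 0.25 on the log2 scale. Of the 30 beyond it, 21 were in knockdown-labelled and 9 in control regions. The largest were -0.44 for the chaperone Psmd5 in knockdown-labelled region 2, 0.40 for Psma4 in region 3, -0.37 for Psmc2 in region 11, and -0.37 for Psmd1 in regions 12 and 13. The spread between regions was larger under the knockdown label for 29 of the 34 subunits, with a median SD of 0.23 on the log2 scale against 0.18 in control regions. For all targets above background the medians were 0.18 and 0.16. Because the subunits varied together, the 34 are not separate cases, and the share of all targets with a larger spread was not counted. Among the subunits, Psmb5 followed the others least in control regions, with a Pearson correlation of 0.66 with their mean, against 0.85 in knockdown-labelled regions.

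Upstream of these genes, the start-site sequences of the catalytic subunits and their interferon-induced counterparts are given because the ratios below set them against each other. RefSeq promoters of build GRCm38.p6, from 250 bases before to 50 after the start, were matched by symbol for 28 of the 34 subunits, and not for Psmb1, Psmb2, Psmb7, Psmc3, Psmd3 and Psmd7. Both strands were searched for TGACNNNGC, the antioxidant response element that NRF1 and NRF2 bind, for CCAAT, for TTCNNNGAA, the element of STAT factors, and for GAAA, any 2 bases and GAAA again, the element of interferon regulatory factors, which can overlap the STAT one. TGACNNNGC was in 5 of 28 subunit promoters, or 17.9%, against 14.0% of 27025 genes, and the carriers were Psmb5, Psmb6, Psmc6, Psmd9 and Psmd12. CCAAT was in 11 (39.3%, against 41.1%), TTCNNNGAA in 1 (3.57%, against 9.55%) and the interferon element in 3 (10.7%, against 3.99%). The windows below are Psmb5 (chr14:54617946-54618245, minus strand), Psmb6 (chr11:70525107-70525406, plus strand), Psmb8 (chr17:34197945-34198244, plus strand) and Psmb9 (chr17:34187281-34187580, minus strand), each 5′ to 3′. Capitals mark the matches, which are TGACNNNGC in Psmb5 and Psmb6, TTCNNNGAA in Psmb8, and CCAAT on the opposite strand in Psmb9.
Psmb5: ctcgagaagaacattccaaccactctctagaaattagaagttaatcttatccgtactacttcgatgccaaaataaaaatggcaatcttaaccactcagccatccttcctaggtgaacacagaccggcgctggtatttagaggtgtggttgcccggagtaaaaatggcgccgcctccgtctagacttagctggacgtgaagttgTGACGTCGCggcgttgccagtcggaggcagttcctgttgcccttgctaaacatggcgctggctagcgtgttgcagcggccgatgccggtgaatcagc
Psmb6: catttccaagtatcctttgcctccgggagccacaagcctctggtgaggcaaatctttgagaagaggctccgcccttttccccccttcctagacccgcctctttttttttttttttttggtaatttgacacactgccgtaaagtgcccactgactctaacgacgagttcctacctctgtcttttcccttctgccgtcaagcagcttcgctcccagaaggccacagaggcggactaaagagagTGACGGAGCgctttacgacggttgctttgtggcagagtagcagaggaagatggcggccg
Psmb8: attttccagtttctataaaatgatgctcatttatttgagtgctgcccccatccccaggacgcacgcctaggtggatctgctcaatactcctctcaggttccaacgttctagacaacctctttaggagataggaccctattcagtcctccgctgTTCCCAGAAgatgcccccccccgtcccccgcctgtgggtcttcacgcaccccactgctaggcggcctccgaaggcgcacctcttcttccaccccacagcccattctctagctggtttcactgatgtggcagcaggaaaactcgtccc
Psmb9: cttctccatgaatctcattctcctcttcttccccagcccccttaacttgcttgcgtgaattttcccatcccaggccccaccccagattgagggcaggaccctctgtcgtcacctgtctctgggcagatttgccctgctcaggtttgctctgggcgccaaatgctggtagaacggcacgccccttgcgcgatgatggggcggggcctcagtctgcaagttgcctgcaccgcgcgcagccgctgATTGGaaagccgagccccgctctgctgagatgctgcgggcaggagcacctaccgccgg
The 5 subunits with TGACNNNGC had log2 fold changes from -0.09 for Psmb5 to 0.07 for Psmb6, and 0 of them passed the test.

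The ratio of an immunoproteasome subunit to the constitutive subunit whose place it takes does not depend on how a region is scaled. Psmb8 read 2208, 2950 and 5165 in knockdown-labelled regions and 1292, 2817 and 3302 in control regions, a log2 fold change of 0.32, with an SE of 0.15 (limma adjusted p = 0.205). Psmb9 read 1935, 3011 and 4992 against 887, 2480 and 3277 in control regions (0.40, SE 0.17; limma adjusted p = 0.187). Psmb10 read 2744, 4258 and 9213 against 2031, 3959 and 5897 in control regions (0.31, SE 0.17; limma adjusted p = 0.303). None of the 3 passed over all targets. The log2 ratio Psmb8/Psmb5 ran from 0.06 to 1.27 with a median of 0.66 in knockdown-labelled regions, and from -0.52 to 0.64 with a median of 0.30 in control regions. In 7 of 13 knockdown-labelled regions it was above the highest control region. Its mean was 0.63 ± 0.39 in knockdown-labelled regions (SD, n = 13) and 0.23 ± 0.36 in control regions (SD, n = 14), a difference of 0.41 (SE 0.14, 95% interval 0.11 to 0.70), or 1.33-fold. It was the only one of the 3 ratios past the test (two-sided permutation p = 0.00916, adjusted p = 0.0275 over the 3 ratios), and the exact rank-sum test gave an adjusted p = 0.0580 for log2 Psmb8/Psmb5. The call was lost without control region 11 (difference 0.35, permutation adjusted p = 0.0512), knockdown-labelled region 3 (0.35, permutation adjusted p = 0.0547) or knockdown-labelled region 4 (0.37, permutation adjusted p = 0.0526). Psmb9/Psmb6 differed by 0.33 (SE 0.20, 95% interval -0.09 to 0.75; permutation p = 0.116, adjusted p = 0.126) and Psmb10/Psmb7 by 0.32 (SE 0.20, 95% interval -0.09 to 0.73; permutation p = 0.126, adjusted p = 0.126). With regions that shared an animal, these p-values are too small.

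**Figure D5:**
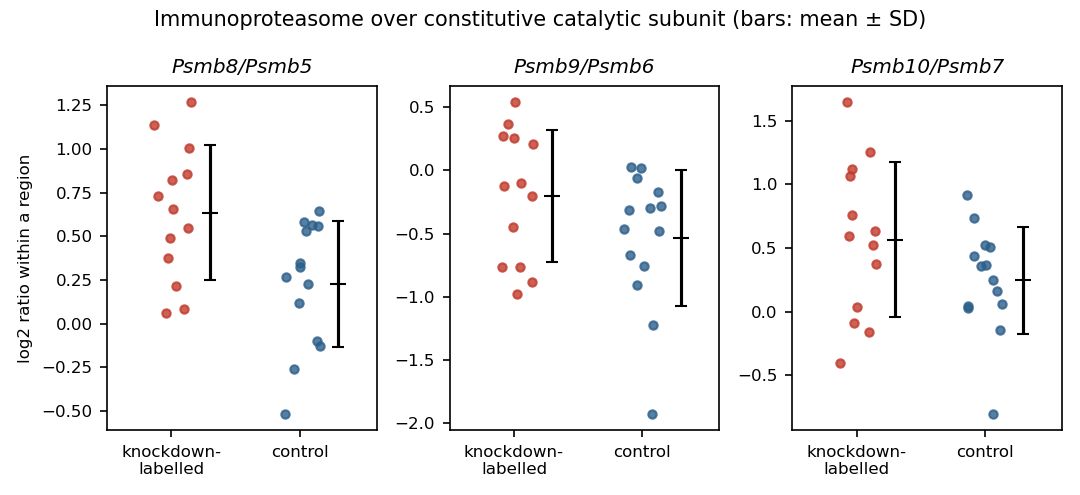
Log2 ratio of each immunoproteasome subunit to its constitutive counterpart within a region, with 13 knockdown-labelled regions left of 14 control regions; bars give the mean ± SD. Psmb8/Psmb5 reaches 1.27 in knockdown-labelled regions and 0.64 in control regions, and the groups overlap in all 3 panels.

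Markers of other cells moved with the label beside this ratio. In knockdown-labelled regions 7 of 16 markers of T or NK cells were called higher and 0 lower, beside 1.31% higher among all targets, and their summed reading was 3069 to 5401 there, against 2379 to 3991 in control regions. Of 17 hepatocyte markers 6 were higher, with sums of 2667 to 15417 in knockdown-labelled and 2471 to 7510 in control regions. Among 16 markers of macrophages or Kupffer cells 1 was higher, with sums of 13301 to 36855 and 11512 to 22132 in the same groups. Above background were 8 of the 16 T or NK cell markers, 10 of the 17 hepatocyte markers and 11 of the 16 macrophage or Kupffer markers. No target of the whole table read 0 in any region, so the absence of zeros does not show detection. With the T or NK cell list in the fit as its mean, the difference in log2 Psmb8/Psmb5 was -0.01 (permutation adjusted p = 0.932), and those of log2 Psmb9/Psmb6 and log2 Psmb10/Psmb7 were -0.19 and -0.15 (permutation adjusted p = 0.716 for both). With the hepatocyte list the difference in Psmb8/Psmb5 was 0.20 (permutation adjusted p = 0.573) and with the macrophage list it was 0.41 (permutation adjusted p = 0.0344). With the macrophage list the other ratios also passed, each at 0.49 (permutation adjusted p = 0.0344 for both). Taken singly with the T or NK cell list in the fit, Psmb8 had a log2 fold change of 0.03 (limma adjusted p = 0.961) and Psmb5 one of 0.04 (limma adjusted p = 0.876), in a fit that called 0 of all 19615 targets. The T or NK cell list itself differed by label, with mean log2 readings of 7.83 ± 0.20 in knockdown-labelled regions (SD, n = 13) and 7.53 ± 0.18 in control regions (SD, n = 14). List and label are therefore hard to separate in these fits. The Pearson correlation of the list with the immunoproteasome mean was 0.20 in knockdown-labelled and 0.76 in control regions. What part these cells have in the ratios was not tested beyond these fits.

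Of 39 other genes of the pathway, 0 were higher and 4 were lower in knockdown-labelled regions, beside 1.31% higher and 2.58% lower among all targets. Psme3, the nuclear activator PA28-gamma, read 1686, 1985 and 2261 in knockdown-labelled regions, against 1872, 2357 and 2779 in control regions. Although the ranges overlapped, every one of the 13 knockdown-labelled regions was under the control mean, and the log2 fold change was -0.23, with an SE of 0.06 (limma adjusted p = 0.0334). Psme4, the activator PA200, read 1097, 1482 and 1811 against 1412, 1659 and 2015 in control regions. In 11 of 13 knockdown-labelled regions it lay below the control mean and in 6 below every control region, with a log2 fold change of -0.25, with an SE of 0.07 (limma adjusted p = 0.0442). Ube3c, a ubiquitin ligase that binds the proteasome, read 333, 378 and 400 against 359, 422 and 480 in control regions. It was below the control mean in all 13, at -0.18 (SE 0.05; limma adjusted p = 0.0289). Ecpas, a proteasome-binding scaffold, read 1127, 1412 and 1584 against 1229, 1588 and 1820 in control regions, and was below the control mean in 12 of 13 (-0.21, SE 0.06; limma adjusted p = 0.0499). These calls were close to the threshold. Leaving out single regions moved the adjusted p between 0.01004 and 0.0642 for Psme3, 0.0207 and 0.0884 for Psme4, 0.00784 and 0.0573 for Ube3c, and 0.0146 and 0.0924 for Ecpas, and the call was lost in 9, 15, 4 and 19 of 27 such fits in that order of genes. With the T or NK cell list, the macrophage list, the hypoxia list or the log2 total in the fit, 0 of the 4 passed. Those fits called few targets of any kind, namely 0 of 19615 with the T or NK cell list, 0 with the hypoxia list, 16 higher and 10 lower with the macrophage list, and 23 higher and 4 lower with the log2 total. With the background ratio all 4 passed (limma adjusted p = 0.0029, 0.0051, 0.0048 and 0.0053), in a fit that called 484 higher and 1809 lower. With the proliferation list all 4 passed as well (limma adjusted p = 0.0038, 0.0059, 0.0070 and 0.0096), beside 440 higher and 1568 lower. With the hepatocyte list only Ecpas did (limma adjusted p = 0.0353). Over all 23 alternatives other than leaving out single regions, the call was lost in 7 for Psme3, 12 for Psme4, 10 for Ube3c and 9 for Ecpas. The smaller activator subunits Psme1 and Psme2, which are induced by interferon and serve antigen processing, had 0.22 (SE 0.09; limma adjusted p = 0.169) and 0.15 (SE 0.12; limma adjusted p = 0.521).

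The remaining lists held no call in the main fit. Of the 5 chaperones that build the 20S core, Psmg3 had the smallest p, with readings of 658, 809 and 1002 in knockdown-labelled regions and 693, 958 and 1083 in control regions (log2 fold change -0.21, SE 0.07; limma adjusted p = 0.0982). Nfe2l1, the NRF1 gene, read 1709, 2224 and 2559 against 1561, 2635 and 4505 in control regions. All 13 knockdown-labelled regions were below the control mean and all lay within the wider control range, and the log2 fold change was -0.33, with an SE of 0.10 (limma adjusted p = 0.0637). The highest control reading was in region 6, one of the hypoxia-high regions. With the hypoxia list in the fit the value for Nfe2l1 was -0.07 (limma adjusted p = 0.814), and without control regions 6 and 7 the log2 fold change Nfe2l1 was -0.25 (limma adjusted p = 0.147). Leaving out these regions does not remove the difference in hypoxia genes, since other control regions also lay above every knockdown-labelled region. Among the ubiquitin genes and E1 enzymes Rps27a, which encodes ubiquitin fused to a ribosomal protein, had -0.21 (SE 0.07; limma adjusted p = 0.0825), and genes that share the ubiquitin sequence may not be told apart by probes. All 8 CCT subunits had a fold change below 0, with a median of -0.16 and 0 called, and Cct6a came nearest at -0.30 (SE 0.09; limma adjusted p = 0.0586). All 9 COP9 signalosome subunits were below 0 as well, with a median of -0.08 and 0 called, and Cops7a had -0.19 (SE 0.07; limma adjusted p = 0.116). The medians beside them were -0.00 for the constitutive subunits and -0.04 for all targets. With the background ratio in the fit Psmg3, Rps27a, Cct6a and Cops7a passed as lower (limma adjusted p = 0.0211, 0.0115, 0.0048 and 0.0257). Nfe2l1 did not (limma adjusted p = 0.0514). That fit called 484 of 19615 targets higher and 1809 lower. Over the 23 alternatives other than leaving out single regions, a call was gained in 8 for Cct6a and 4 for Rps27a. For Psmg3, Nfe2l1 and Cops7a it was gained in 3 each.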

How the data were processed

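Probe readings of 19615 targets were taken from the deposited table of 13 knockdown-labelled and 14 control regions. The deposited signal values had been normalized by the authors to the upper quartile, separately in each group, after counting in the GeoMx DSP Analysis Suite. Each region was rescaled to a common median, and log2(value + 1) was tested with limma 3.58.1 in R 4.3.3 (two-sided, with trend and robust on; p adjusted by Benjamini-Hochberg across the table and called under 0.05). Ratios were tested by permutation with 100000 resamples, and ratios with a covariate by permuting residuals. Low targets were not filtered. Readings were whole multiples of one step within 0.01 for at least 99.98% of values, but were not taken as read counts, so no count model was run. Among 169 pairs of regions none agreed within counting noise, with a smallest chi-square per degree of freedom of 2.26. The number of regions and the shared animals limit the precision. Named genes were those past the threshold or else with the smallest p in each list, the subunits with the highest and lowest means, and the immunoproteasome genes. Psma4, Psmb6, Psmb7 and Psmd11, and other subunits given by fold change alone, were chosen after their values were seen. One gene that this rule would name is not reported here. The members and lists were chosen with earlier results of these data known. Python 3.11.15, scipy 1.17.1 and numpy 2.4.6 were used, and the limma step was tested on simulated data.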

Additional observations from a re-analysis of the deposited data

How the results depend on the processing

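The count of subunits called lower was 0 under every alternative except the deposited values (35), and the count called higher was 0 except with the same total (2), quantile normalization (4) and the housekeeping list (17). Of all 19615 targets the deposited values called 19222 lower. The other 3 settings called 257, 477 and 1850 higher, in that order. On the deposited values the sign of the log2 fold change turned for Psma4 (-0.40), Psma7 (-0.43), Psmb6 (-0.44), Psmb2 (-0.49), Psmd11 (-0.43), Psmd13 (-0.42), Psmb8 (-0.18), Psmb9 (-0.11) and Psmb10 (-0.20). With the housekeeping list it turned for Psma3 (0.011), Psmb5 (0.058), Psmb7 (0.13), Psmb11 (0.14), Psmc2 (0.027) and Psmd10 (0.030). The log2 fold change Psmb7 and the log2 fold change Psmb11, both near 0, also turned with the same upper quartile (0.032 and 0.040), the same total (0.049 and 0.056), TMM factors (0.027 and 0.035), quantile normalization (0.032 and 0.0017), the log2 total (0.050 and 0.0042) and the mean of the members (0.00022 and 0.0085). Psmb7 turned with region weights (0.0087), the background ratio (0.0037), the T or NK cell list (0.22) and the proliferation list (0.010). Psmb11 turned with the background subtracted (0.18), the hepatocyte list (0.015), the macrophage list (0.034) and without the region of lowest total (0.0067). With the T or NK cell list Psmb5 (0.037), Psmc2 (0.036) and Psmd10 (0.068) turned, and with the log2 total Psmb5 (0.057) and Psmc2 (0.0039). With the hypoxia list Psma7 (-0.012), Psmb2 (-0.026) and Psmd13 (-0.0062) turned, and the log2 fold change Psmb2 (-0.0076) also without control regions 6 and 7. Without single regions the fold changes ran from -0.047 to 0.036 for Psmb7, -0.012 to 0.049 for Psmb2 and -0.023 to 0.024 for Psmb11.

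The difference in log2 Psmb8/Psmb5 was 0.41 with the exact rank-sum test, 0.43 with the log2 total, 0.20 with the hepatocyte list, 0.40 with the hypoxia list and -0.011 with the T or NK cell list, none past the threshold. Psmb9/Psmb6 and Psmb10/Psmb7 were -0.19 and -0.15 with the T or NK cell list and 0.49 each, past the threshold, with the macrophage list. The covariate fits of the ratios and the mean of the members as a scale were chosen after seeing the data, and the cause of these changes was not tested. Without single regions the differences were 0.35 to 0.46 for Psmb8/Psmb5, with 3 of 27 no longer past the threshold, 0.23 to 0.40 for Psmb9/Psmb6 and 0.23 to 0.40 for Psmb10/Psmb7. Without single regions the counts of subunits called were 0. The edgeR alternative was not run, because the steps were not accepted as whole reads. No paired analysis was possible because the labels give the groups no shared replicate numbers. Regions could not be tied to mice.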
